A study of Bubalus bubalis with 3 samples.

Results

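The candidate names are the rows of the deposited miRNA table that carry no known bovine miRNA name. They were chosen by spelling alone: every row whose name does not begin with the bovine prefix bta-. They consist of a chromosome-like prefix (a number or X) joined by a "_" to a second number, and some end in star. There were 226 candidate names among 622 listed names, the other 396 being known bovine miRNAs, and 182 of the 226 were plain and 44 ended in star. The tissue was adipose of Chinese swamp buffalo (Bubalus bubalis), a type of water buffalo kept for draught and meat, at 6 months of age, collected at a slaughterhouse. The series held 1 group of 3 small RNA libraries, called library 1, 2 and 3 after their titles, with no treatment or genotype in the labels and no control group. The labels do not give the fat depot, the sex, or whether each library came from a separate animal, so an SD here covers the spread between 3 samples that may differ for technical reasons alone.

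A miRNA is cut from an RNA hairpin as a short duplex, and usually more of one strand is kept and loaded into an Argonaute protein, where it guides repression of target mRNAs. In older naming a star marks the strand of which less is kept. Programs that search small RNA reads for hairpins without a database entry commonly name a prediction by its chromosome and a running number, and such predictions can also be fragments of other RNAs. The sources used here do not say whether these names were made in this way. The table pairs them with neither sequence nor coordinates, so no sequence is printed. Values are TPM as deposited. Each gives what part of the reads of a library fell to that name, scaled so that every library has the same total.

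Markers of the tissue were checked among the known names. The adipose and vessel wall miRNA miR-143 had a mean of 209686 TPM and the adipocyte-linked miR-378 had 2172 TPM. Of the other fixed markers, the red cell miRNAs miR-486 and miR-451 (3482 and 1061 TPM) and the white cell miR-142-5p (106 TPM) were also present. The muscle miRNAs miR-1 and miR-133a (9.27 and 9.03 TPM), the myeloid miR-223 (7.50 TPM), the epithelial miR-200a and miR-205 (1.03 and 0.767 TPM) and the hepatocyte miR-122 (0.367 TPM) were low. Libraries 1, 2 and 3 held an estimated 6860000, 6770000 and 5480000 reads of listed names, and 3 reads, the floor used below, were worth 0.437, 0.443 and 0.547 TPM. miR-10b alone took 26.5%, 48.8% and 40.4% of TPM in the 3 libraries.

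The candidate names held very little of the small RNA pool. Together they had 368, 231 and 391 TPM in libraries 1, 2 and 3, about 2545, 1586 and 2137 reads. This was 0.0368% of TPM in library 1 (95% Wilson interval 0.0357% to 0.0385%), 0.0231% in library 2 (0.0223% to 0.0246%) and 0.0391% in library 3 (0.0374% to 0.0407%), or 0.0330% ± 0.00863 (SD, n = 3). The Wilson intervals were computed from the estimated reads, so they are not centred on these TPM shares. Intervals cover counting error only, since PCR copies cannot be told from separate molecules. The share in library 2 lay below both others by more than counting error. Library 2 was also the library with the most miR-10b. With miR-10b taken out of the total the shares were 0.0501%, 0.0452% and 0.0656%, still lowest in library 2. After division by size factors (1.39, 0.603 and 1.16), which were computed from the known names, the candidate sum was 264, 384 and 338 TPM, and library 2 was then the highest. The place of library 2 therefore depends on the scaling.

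Most candidate names were near the limit of detection. Their median of mean TPM was 0.233, against 4.82 for the known names. Of the 226, 178 had a mean below 1 TPM, 25 lay from 1 to 3, 16 from 3 to 10 and 7 at 10 TPM or more. Of the known names the corresponding numbers were 137, 41, 59 and 159. The 178 names below 1 TPM made up 78.8% of the candidate names and 12.8% of their TPM.

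**Figure D1:**
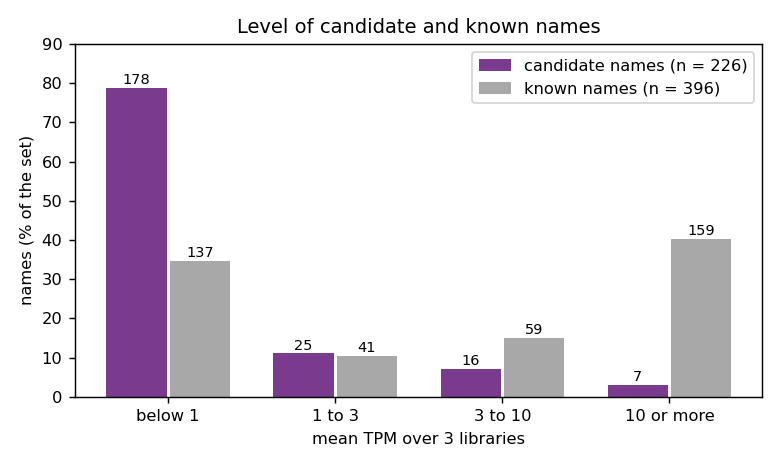
Share of names (%) by mean TPM over the 3 libraries, for candidate names (purple) and known names (grey), with the number of names above each bar. Candidate names pile up below 1 TPM (178 of 226), and known names are most numerous at 10 TPM or more (159 of 396).

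Detection across libraries followed the same pattern. At least 1 read was recorded for 175, 143 and 167 candidate names in libraries 1, 2 and 3, and for 366, 336 and 349 known names. All 3 libraries held 103 of the candidate names and 306 of the known names. The floor of 3 reads was reached in every library by 50 candidate names (22.1%) and 258 known names (65.2%). It was reached nowhere by 114 of the 226 candidate names and 67 of the 396 known names. The number at the floor in every library depends on the floor, with 103 at 1 read and 25 at 10 reads. Over all libraries 51 candidate names rested on 1 read, 101 on 2 to 9 reads, 57 on 10 to 99 and 16 on 100 or more. The remaining name, 19_12716, was listed at 0 TPM in all 3 libraries. In the same classes of 1, 2 to 9, 10 to 99 and 100 or more reads there were 33, 73, 98 and 192 known names.

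Names seen in 1 library numbered 68, of which 29 were in library 1, 16 in library 2 and 23 in library 3. Of the 396 known names 47 were seen in 1 library, with 26, 9 and 12 in libraries 1, 2 and 3. For 51 of the 68 candidate names this was 1 read, so their absence elsewhere was not detectable at this depth. Only 2 of the 68 had 10 or more reads. These, named after their values were seen, were 5_25716_star with 40 reads in library 1 and 29_22097 with 11 reads in library 2.

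A few names carried most of the candidate signal. The first 2 held 24.2% of candidate TPM, the first 7 held 47.9%, and the 23 averaging 3 TPM or more held 73.8%. The most abundant, 12_4647, had 43.3, 18.2 and 59.1 TPM in libraries 1, 2 and 3, from 297, 123 and 324 reads, and ranked 128 of all 622 names. Its 95% counting intervals, 38.5 to 48.5, 15.1 to 21.7 and 52.8 to 65.9 TPM, did not overlap. After size factors it had 31.1, 30.2 and 51.1 TPM, so the low value of library 2 was no longer apart from library 1.

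The second name, 7_28048, had 36.0, 54.4 and 28.3 TPM from 247, 368 and 155 reads. On the deposited scale it was highest in library 2. Its counting interval there, 48.9 to 60.2 TPM, lay above those of library 1 (31.6 to 40.8 TPM) and library 3 (24.0 to 33.1 TPM). Size factors widened the gap to 25.8, 90.3 and 24.5 TPM. Among the 48 candidate names averaging 1 TPM or more, 4 were highest in library 2 and 40 were lowest there as deposited, and 23 were highest and 13 lowest there after size factors. Among the 259 known names at that level, 9 were highest and 230 lowest in library 2 as deposited, and 84 and 88 after size factors, so both tallies turn with the scaling. The size factors were fitted on known names, so the even tally of known names after them follows in part from the fit. The other 3 candidate names highest in library 2 as deposited, named after their values were seen, were 16_9421, 5_26306 and X_32388, with means of 1.17, 1.17 and 1.33 TPM.

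Of the next names, 6_27184 had 22.9, 13.1 and 19.1 TPM and X_32414 had 15.6, 14.8 and 23 TPM in libraries 1, 2 and 3. 4_25272 had 12.1, 10.9 and 23.3 TPM and, like X_32414, was highest in library 3. All of these stayed above 10 TPM in every library. 13_6388 had 18.9, 8.4 and 15.1 TPM as deposited and 13.6, 13.9 and 13.1 TPM after size factors, an SD of log2(TPM + 1) of 0.04, against 0.56 as deposited. Differences between the means of these names are small beside their spread between libraries: 6_27184 (18.4 ± 4.94 TPM, SD, n = 3), X_32414 (17.8 ± 4.52), 4_25272 (15.4 ± 6.84) and 13_6388 (14.1 ± 5.32). The names share their libraries, however, and 6_27184 was above 13_6388 in all 3. The order of every other pair of these names changed between libraries. These differences were not tested. The minimum of 10 TPM fell between 26_20059_star (12.5 TPM) and 26_20156 (9.87 TPM).

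**Figure D2:**
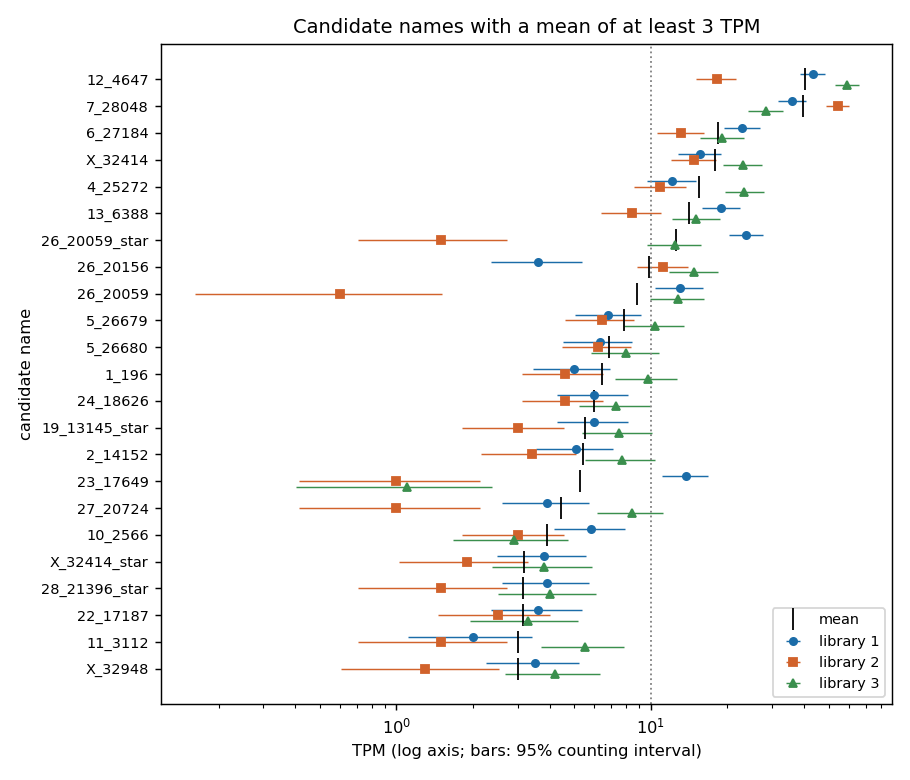
TPM (log axis) of the 23 candidate names averaging 3 TPM or more in libraries 1 (circles), 2 (squares) and 3 (triangles), with 95% counting intervals as bars, the mean as a black tick and 10 TPM as a dotted line. 7_28048 is highest in library 2 (54.4 TPM), whereas 26_20059 and its star name fall to 0.6 and 1.5 TPM there.

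Plain and star names were compared next. Plain names held 316, 218 and 354 TPM in libraries 1, 2 and 3 and star names 51.7, 13.3 and 37.3 TPM, so that star names made up 14.0%, 5.75% and 9.54% of candidate TPM (9.78% ± 4.16, SD, n = 3). Of the 182 plain names, 44 (24.2%) reached 3 reads in every library, as did 6 of the 44 star names (13.6%). The median of mean TPM was 0.267 for plain names and 0.167 for star names. The 5 most abundant star names were 26_20059_star (12.5 ± 11.1 TPM, SD, n = 3), 19_13145_star (5.50 ± 2.29), X_32414_star (3.17 ± 1.10), 28_21396_star (3.13 ± 1.42) and 5_25716_star (1.93 ± 3.35). All 5 had a plain name of the same stem in the table.

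The 226 names came from 198 stems, where a stem is the name without its star. For 154 stems the plain name alone was listed, for 28 both names, and for 16 the star name alone. A star name listed alone was always low: the highest, 5_26062_star, had a mean of 0.600 TPM, and none of the 16 reached 3 reads in every library. Plain names with a listed star name had a median of 0.850 TPM, and 11 of 28 reached 3 reads in every library. Plain names listed alone had a median of 0.233 TPM, and 33 of 154 did so. The most abundant name of all, 12_4647, had no listed star name.

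In the 28 pairs the plain name had more reads over the 3 libraries in 20, the star name in 7, and the numbers were equal in 1. The difference of log2(TPM + 1) within each library, plain minus star, was tested against 0 with limma in 1 fit together with the known hairpins that had both a 5p and a 3p name. A pair was tested when its higher name averaged 1 TPM or more. A low pair could thus enter through the side then found higher, which favours unequal pairs, candidate and known alike. Of 15 candidate pairs, 10 had more of the plain name and 3 more of the star name at an adjusted p below 0.05. Over all 42 pairs tested, candidate and known, 83.3% were called, 61.9% with the plain or 5p name higher and 21.4% with the star or 3p name higher. The candidate share called, 13 of 15, was thus near that of the whole fit, which includes these pairs and passed the same filter. Of the known pairs alone 22 of 27 were called. With no minimum, 13 of the 28 candidate pairs were called with more plain and 6 with more star. If the star ending was given by read number in these same libraries, the excess of plain names follows from the naming, and the sources used here do not tell.

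Pairs with more of the plain name differed in how much star was present. The largest difference was that of 7_28048, 5.20 ± 0.59 log2 units (SD, n = 3; limma adjusted p = 5.38e-13), plain being higher in 3 of 3 libraries. It rests on about 770 plain reads and 1 star read, a ratio of 770 (95% exact counting interval 138 to 30452). X_32414 had the best measured star name among these: its plain name had 15.6, 14.8 and 23 TPM and its star name 3.8, 1.9 and 3.8 TPM in libraries 1, 2 and 3. The ratio of reads was 5.55 (333 to 60 reads, interval 4.21 to 7.43), and the difference 2.19 ± 0.35 (limma adjusted p = 1.38e-06).

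For 2_14152 the plain name had 5.1, 3.4 and 7.7 TPM and the star name 0.1, 0 and 0.4 TPM (difference 2.41 ± 0.25). For 10_2566 the plain name had 5.8, 3.0 and 2.9 TPM and the star name 1 read in all, in library 1 (2.20 ± 0.37). X_32946 (1.67 ± 0.67), 7_28635 (1.55 ± 0.73) and 13_6368 (1.23 ± 0.31) also had 1 to 3 star reads in all, and 21_16178 (1.06 ± 0.34), 2_13645 (1.05 ± 0.59) and 23_17649 (1.71 ± 1.29) had 9, 6 and 5. Without library 1 the difference of 23_17649 was 0.97. These differences understate the ratio of such low names, since 1 TPM is added to both.

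In 3 pairs the order was the opposite. The star name of 19_13145 had 6.0, 3.0 and 7.5 TPM, and its plain name had 0.3, 0 and 0.2 TPM, a difference of -2.42 ± 0.41 (SD, n = 3; limma adjusted p = 1.28e-07) with star higher in 3 of 3 libraries. That is about 3 plain reads against 102 star reads, a ratio of star to plain of 34.0 (counting interval 11.3 to 168). The pair 28_21396 had 1.0, 0.9 and 0.4 TPM of the plain name and 3.9, 1.5 and 4.0 TPM of the star name (-1.18 ± 0.73). The pair 29_21769 had 0.3, 0.3 and 0 TPM of the plain name and 1.6, 1.0 and 1.5 TPM of the star name (-0.98 ± 0.35). In all 3 pairs the star ending thus did not mark the name with fewer reads in these libraries.

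No difference was called for 2 pairs. 26_20059 had 13.0, 0.6 and 12.8 TPM of the plain name and 23.7, 1.5 and 12.4 TPM of the star name in libraries 1, 2 and 3. Star was higher in libraries 1 and 2 and plain was slightly higher in library 3 (-0.82, -0.64 and 0.04; mean -0.47 ± 0.46, limma adjusted p = 0.180). Pooled over libraries, 26_20059 had 241 star and 163 plain reads, a ratio of 1.48 (95% exact counting interval 1.21 to 1.81). That interval leaves out the spread between libraries. 5_25716 had 6.6, 0 and 0.2 TPM of the plain name and 5.8, 0 and 0 TPM of the star name. Nearly all of its 46 plain and 40 star reads thus came from library 1 (difference 0.14 ± 0.13, limma adjusted p = 0.634). Its absence from library 2 allows up to 0.545 TPM of each name there, the upper limit of the 95% counting interval.

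The calls of 7 pairs held whichever library was left out: 7_28048, 2_14152, 10_2566, X_32414, X_32946, 13_6368 and 19_13145. Without library 3 the calls of 23_17649, 7_28635, 21_16178, 2_13645, 28_21396 and 29_21769 were lost, with limma adjusted p from 0.0593 to 0.137, which left 6 pairs with more plain and 1 with more star. Without library 2 the calls of 21_16178 (adjusted p = 0.0617) and 29_21769 (0.0522) were lost, and without library 1 that of 28_21396 (0.0544). Among the 13 pairs too low to be tested, with 2 to 25 reads a pair, plain had more reads in 9 and star in 3. The pair 12_4758, named after its values were seen, appeared in library 2 alone, with 0.6 TPM of the plain and 0.4 TPM of the star name.

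**Figure D3:**
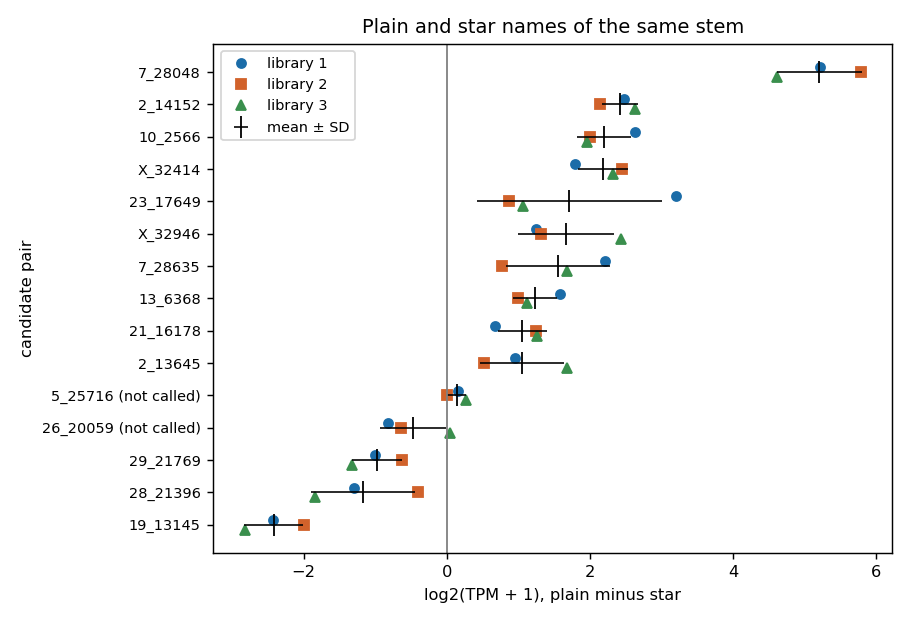
Difference of log2(TPM + 1), plain minus star, in libraries 1 to 3 for the 15 tested candidate pairs, with mean ± SD in black. From 7_28048 (5.20) to 2_13645 (1.05) plain is higher, from 29_21769 (-0.98) to 19_13145 (-2.42) star is higher, and 2 pairs are not called.

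How far candidate names varied between libraries was set beside known names, first together and then within ranges of mean TPM. Over names averaging 1 TPM or more, the median SD of log2(TPM + 1) was 0.49 for 48 candidate names and 0.65 for 259 known names. After size factors the medians were 0.39 and 0.35, so the order of the sets turned round. From 1 to 3 TPM the medians were 0.45 and 0.58, from 3 to 10 TPM 0.54 and 0.62, and at 10 TPM or more 0.56 (7 names) and 0.67 (159 names). After size factors they were 0.36 and 0.36, 0.46 and 0.41, and 0.55 and 0.29. The size factors were fitted on known names at 10 TPM or more, and candidate names had no part in the fit. The smaller spread of known names after size factors thus follows in part from the fit, and the turned order is no trait of the candidate names. At 10 TPM or more the levels were not alike, since candidate names reached 40.2 TPM and known names 385822 TPM. Without library 2 the median of the 48 candidate names was 0.28. Correlations across these 48 names, which share their libraries, were 0.62, 0.74 and 0.79 (Pearson, log2 scale) for libraries 1 and 2, 1 and 3, and 2 and 3, against 0.98, 0.98 and 0.99 for the known names, whose range of level is far wider.

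The upper end differed from the median. The highest SD among the known names was 1.58, and 5 candidate names exceeded it. After size factors, which were fitted on known names, the highest was 1.26 and 6 candidate names exceeded it. Counting error weighs more on low names, and its part in this was not tested. Among those averaging 3 TPM or more the largest SDs were those of 26_20059 (1.80), 26_20059_star (1.71), 23_17649 (1.64), 27_20724 (1.12) and 26_20156 (0.94). After size factors these were 1.44, 1.23, 1.32, 0.84 and 1.29, with 26_20059_star below the highest known name, and 7_28048 (0.46 as deposited, 1.04 after size factors) passed 27_20724.

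Single libraries set these values. The plain and star names of 26_20059 were low together in library 2, with 4 and 10 reads there against 89 and 163 in library 1 and 70 and 68 in library 3. As deposited, miR-133a of striated muscle was also lowest in library 2, with 15.4, 1.3 and 10.4 TPM in libraries 1, 2 and 3. So was miR-451 of red blood cells (1486, 325 and 1371 TPM). The other muscle and red cell markers, miR-1 (13.1, 6.9 and 7.8 TPM) and miR-486 (4610.9, 2214.5 and 3620.1 TPM), were lowest there too. The same held for miR-143 and miR-378, and for 230 of the 259 known names averaging 1 TPM or more. The white cell miR-142-5p was highest in library 1 as deposited (233, 32.3 and 53.4 TPM), as were 23_17649 and both names of 5_25716. The myeloid miR-223 was highest there too (11.7, 6.4 and 4.4 TPM). So were 175 of the same 259 known names and 22 of the 48 candidate names at that level. The part of other cells in these values was not tested. Without library 1 the mean of 26_20059_star was 6.95 TPM, below the minimum of 10 TPM. 23_17649 had 13.7, 1.0 and 1.1 TPM, with 87.9% of its reads in library 1, and a mean of 1.05 TPM without that library. 26_20156, which shares its prefix with 26_20059, ran the other way, with 3.6 TPM in library 1 and 11.2 and 14.8 TPM in libraries 2 and 3. 27_20724 had 3.9, 1.0 and 8.4 TPM, and its mean without library 3 was 2.45 TPM.

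The smallest SDs at this level were those of 5_26680 (0.18), 22_17187 (0.21), 24_18626 (0.28), X_32414 (0.33) and 5_26679 (0.34). 22_17187 had 3.6, 2.5 and 3.3 TPM and 24_18626 had 6.0, 4.6 and 7.3 TPM. After size factors these SDs were 0.52, 0.28, 0.36, 0.55 and 0.52, so the low spread of 5_26680, X_32414 and 5_26679 belongs to the deposited scale.

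**Figure D4:**
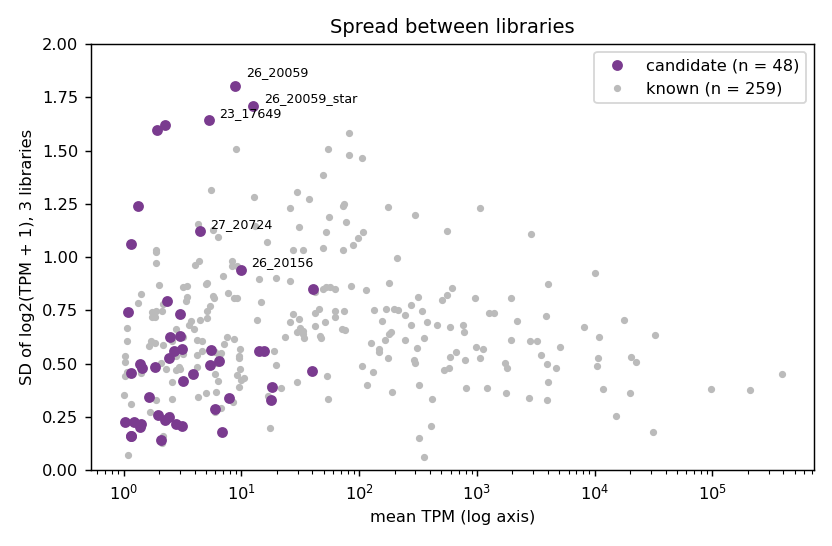
SD of log2(TPM + 1) over the 3 libraries against mean TPM (log axis) for 48 candidate names (purple) and 259 known names (grey) averaging 1 TPM or more. Most candidate names lie within the cloud of known names. As deposited, 5 lie above it: 26_20059 (1.80), its star name (1.71), 23_17649 (1.64), 5_25716 (1.62) and 5_25716_star (1.60).

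The prefixes and numbers describe the naming. The names used 30 prefixes, 1 to 29 and X, and the numbers ran from 177 to 33208. When prefixes were ordered as text (1, 10, 11 and so on), numbers rose from prefix to prefix with 0 overlapping ranges, so that prefix 1 ended at 1247, prefix 10 began at 1851, and prefix X began at 31998. The 198 stems used 0.596% of the numbers up to the highest. Prefixes 25 to 29, with 32 names, exceed the highest numbered chromosome, 24, of the buffalo assembly NDDB_SH_1. Cattle have more chromosomes than buffalo, and the bovine build UMD3.1 is named per the submitters' processing notes.

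Names were spread over every prefix and TPM was not. Prefixes 5 and X held the most names, 17 each, followed by 11 with 15, and prefix 20 held 1. By summed TPM prefix 7 came first with 46.2, 57.3 and 35.8 TPM in libraries 1, 2 and 3, which was 15.5% ± 8.21 of candidate TPM (SD, n = 3). Prefix 12 followed with 44.4, 20 and 60.6 TPM and prefix X with 31.5, 26.9 and 44.0 TPM. Prefix 7 led in libraries 1 and 2 and prefix 12 in library 3, so the first ranks are not separated.

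Single names made most of these sums. Without 7_28048 prefix 7 averaged 6.87 TPM, and without 12_4647 prefix 12 averaged 1.47 TPM, whereas prefix X kept 16.3 TPM without X_32414 and prefix 26 kept 19.6 TPM without 26_20059_star. Prefix 11, with 15 names, summed to a mean of 5.50 TPM.

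Stems whose numbers differ by 1 or 2 within a prefix were looked at after the values were seen, and there were 5 such pairs of stems. The consecutive names 5_26679 and 5_26680 had close levels in every library, 6.8, 6.4 and 10.4 TPM for 5_26679 and 6.3, 6.2 and 8.0 TPM for 5_26680. 10_2679 (0, 0.3 and 0.4 TPM) and 10_2680 (0.1, 0.3 and 0.4 TPM) were alike but below the floor. 21_15615 and 21_15616 differed, with 0.3, 0.3 and 1.1 TPM for 21_15615 and 1.2, 0.1 and 0.7 TPM for 21_15616. X_32946 had 1.6, 1.5 and 4.4 TPM and X_32948 3.5, 1.3 and 4.2 TPM, while 27_20724 averaged 4.43 TPM and 27_20726 0.133 TPM. A neighbouring number does not give the distance between loci, and how reads that match several names were divided is not stated in the sources used here.

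**Figure D5:**
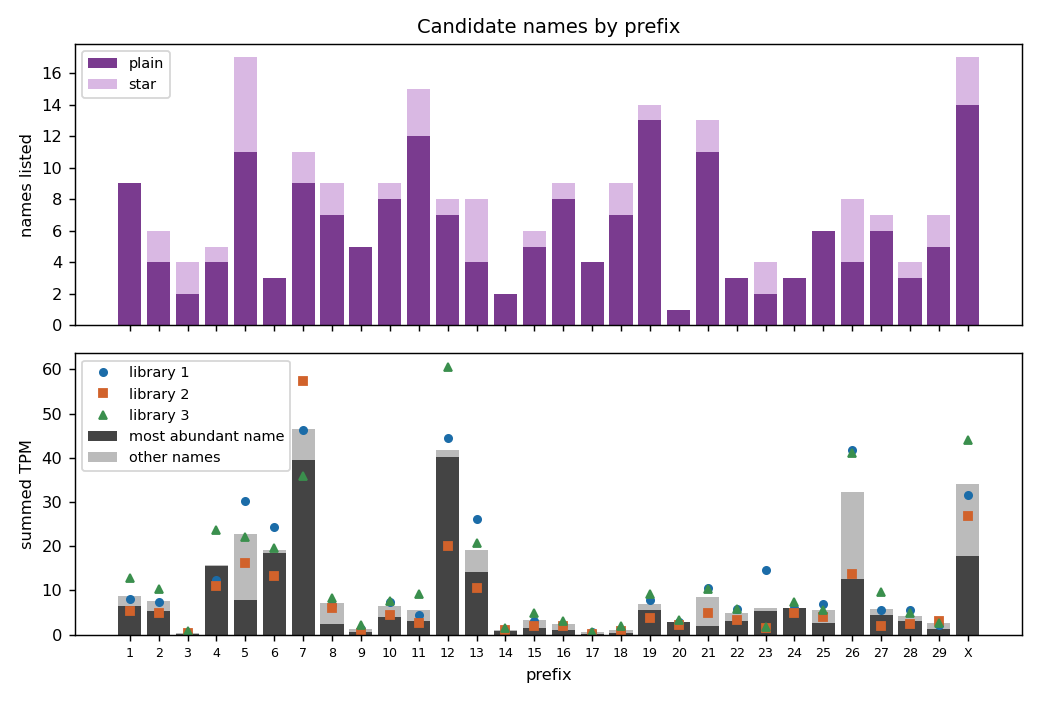
Candidate names listed per prefix, plain and star (upper panel), and their summed mean TPM split into the most abundant name and the other names, with each library's sum as a point (lower panel). Prefixes 5 and X have the most names (17 each), whereas prefixes 7 and 12 have the most TPM, of which all but 6.87 and 1.47 TPM comes from 7_28048 and 12_4647.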

How the data were processed

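Small RNA was measured in 3 libraries of buffalo adipose tissue. Per the labels' protocols, TRIzol-extracted total RNA was made into libraries by adaptor ligation and gel selection of cDNA and run on a HiSeq sequencer; a kit against ribosomal RNA is named too. The aligner Bowtie and the bovine build UMD3.1 appear in the submitters' processing notes with no role given. The counter, any filter and the source of the candidate names are not stated in the sources used here. Values were deposited as TPM, per the file headers, with 1 decimal, and the columns share the same total within rounding. All columns were mapped by name and 0 were left unmapped.

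From these values the worth of 1 read was fitted per library as the step on which values up to 30 TPM lie within 0.05 TPM (100% of 400, 371 and 378 values, against 68.6%, 67.7% and 54.8% at random), and reads of a name are its TPM divided by that step, rounded. Given the rounding these reads are estimates, so count models were not used. Size factors are medians of ratios over known names averaging 10 TPM or more. Pairs were tested with limma 3.58.1 (R 4.3.3) on differences of log2(TPM + 1) against 0, with an abundance trend, adjusted by Benjamini-Hochberg over the 42 pairs. With so few libraries its p-values rest largely on the variance shared between pairs. The step and the pair test were tested on simulated data. With 1 group of 3 libraries, the smallest p of an exact two-sided sign-flip test is 0.25, so levels are described without p. The same floor would hold for such a test of 1 pair, so the smaller limma p-values depend on its variance model. Alternatives were other floors, minimums and pseudocounts, size factors, other limma settings, and leaving out each library.

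The names described one by one are those averaging 10 TPM or more, all tested pairs, the 5 most abundant star names, the 5 largest and 5 smallest SDs at 3 TPM or more, and the leading prefixes. The members, lists and rules were chosen with earlier results of these data known.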

Additional observations from a re-analysis of the deposited data

How the results depend on the processing

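No paired analysis was possible because the series has 1 group and so no samples to pair between groups; the plain and star names were compared within each library. Counts of names moved with the thresholds by construction: candidate names at the floor in every library numbered 103 at 1 read and 25 at 10 reads in place of 50, and a minimum mean of 5 TPM passed 16 names and one of 20 TPM passed 2, against 7. The candidate share of TPM was 0.0536% with miR-10b taken out of the total. The median SD of candidate names was 0.16 with a pseudocount of 10 TPM and 0.22 with no minimum, and ran from 0.28 to 0.43 with a library left out. Pairs with more plain numbered 2 with a minimum mean of 10 TPM, which left 3 candidate pairs to test, and 6 to 10 with a library left out. Pairs with more star numbered 6 with no minimum and 1 to 2 with a library left out. With the minimum of 10 TPM limma called 0 pairs with more star, and 0 at an unadjusted p below 0.05. No pair changed sign under any alternative run. Of 52 such recomputations of the main values, 39 stayed within 1.5 times the count or median, or 1 SD. The star share of candidate TPM (7.64% to 11.8% with a library left out) and the share of prefix 7 (10.9% to 18.7%) were among these. Leaving out 1 of 3 libraries cannot move a mean by 1 SD, so for the shares these runs could not have come out otherwise. They say nothing on stability: the share of prefix 7 was 12.6%, 24.8% and 9.16% in libraries 1, 2 and 3. Below about 3 reads, 0.437 to 0.547 TPM, presence and absence cannot be told apart at this depth.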
